A study of Homo sapiens with 12 samples.

Results

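The genes of glycolysis and of the pentose phosphate pathway were followed in NB4, an established human line of acute promyelocytic leukemia whose cells take on granulocyte features under all-trans retinoic acid (ATRA). The gene list held 34 names, covering glucose transporters, each enzyme step from glucose to lactate, the enzymes that set fructose 2,6-bisphosphate, 1 gluconeogenic enzyme and the pentose phosphate enzymes. Members were taken from probe sets annotated to a single gene, keeping the probe set with the highest mean over the 12 arrays where a gene had several. This left 31 of the 34, among 18404 genes measured in the same way. PGAM1 (phosphoglycerate mutase) shares its 4 probe sets with PGAM4, and no probe set was listed under the names SLC16A1 and SLC16A3 (lactate carriers), so these 3 genes have no value of their own here.

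Total RNA was measured on Affymetrix arrays in 4 arms of 3 arrays. The control arms held wild type NB4 cells (1 array) and NB4 cells carrying a scrambled shRNA (replicates 1 and 2). The knockdown arms held NB4 cells carrying HOTAIRM1 shRNA1 (replicates 1 and 2) and HOTAIRM1 shRNA2 (1 array). HOTAIRM1 is a long non-coding RNA of myeloid cells, and the series asked how its knockdown alters NB4 maturation. Each line was sampled without treatment and after 96 hours of 0.5 uM ATRA. All arms share the leukemic NB4 background, and all lines but the wild type also carry a GFP-marked lentiviral vector, were sorted for GFP and were grown from single cells. Wild type and shRNA2 each had 1 array per state, so the spread within an arm mixes line and replicate. The labels call the numbered replicates biological. It is not stated whether they came from separate clones, and part of the spread may be technical. No probe set carried the name HOTAIRM1, and the depth of its knockdown was not checked here.

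Glycolysis splits glucose into pyruvate with a small yield of ATP, and lactate dehydrogenase turns pyruvate into lactate so that the path can run on. The pentose phosphate pathway branches off after hexokinase. It makes the NADPH that the neutrophil oxidase spends during the respiratory burst, and its second, non-oxidative branch links ribose 5-phosphate for nucleotides back to glycolysis. Neutrophils are known for living largely on glycolysis, with few mitochondria, and proliferating leukemia cells are known for high glucose uptake. The values below are the deposited log2 signal, on which a difference of 1 is a doubling. A probe set's level depends on its own sequence, so levels are compared between arrays and never between genes.

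Most of the ATRA response of the pathway was shared by control and knockdown cells. The glucose transporter SLC2A1 and the lactate dehydrogenases LDHA and LDHB fell in both, and the hexokinase HK3, the transporter SLC2A3, the pentose phosphate enzymes PGD and TKT and the phosphatase TIGAR rose in both. In control cells 6 of the 31 members rose (SLC2A3, HK3, PFKFB2, PGD, TKT and TIGAR) and 8 fell (SLC2A1, PFKL, PFKP, TPI1, ENO1, LDHA, LDHB and RPIA) at an adjusted p under 0.05 by limma. Over all genes 15.2% rose and 20.9% fell in that comparison. In knockdown cells 7 members rose (SLC2A3, SLC2A5, HK3, PFKFB2, PGD, TKT and TIGAR) and 6 fell (SLC2A1, PFKP, TPI1, ENO1, LDHA and LDHB), beside 10.1% and 14.7% of all genes. The members' shares in control cells thus lay near those of all genes, with 17 members not called. The median member differed by -0.13 in control cells, against 0.05 for all genes, and by 0.05 in knockdown cells, against -0.03. Whether an array signal fell because fewer cells held a transcript or because each cell held less cannot be told apart in bulk RNA.

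Several of these calls depended on the arrays and settings used. With scrambled and shRNA1 arrays alone, which leaves 2 arrays an arm, 9 of the 14 control calls were lost (SLC2A3, PFKL, PFKFB2, TPI1, ENO1, LDHA, PGD, RPIA and TKT). In that setting 8 of the 13 knockdown calls were lost (SLC2A3, SLC2A5, PFKP, PFKFB2, TPI1, ENO1, LDHB and TIGAR). With the line as a block, the control calls of PFKL, PFKFB2 and TKT and the knockdown calls of PFKFB2 and TPI1 were lost. This block matches untreated and ATRA arrays by line and replicate number, a pairing that was not shown to hold. With quantile normalization added, the control calls of PFKL, PFKFB2 and TKT and the knockdown calls of PFKP and PFKFB2 were lost. The calls of SLC2A1 and HK3 were kept in both control and knockdown cells in each of the 21 alternative settings.

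Calls in both control and knockdown cells numbered 6 higher and 6 lower members, beside 6.47% and 12.9% of all genes. These comparisons share no arrays, but all arms share the fit's estimate of the spread, so the calls are not independent. Without a model, all 6 ATRA arrays lay below all 6 untreated arrays for 10 members (SLC2A1, PFKP, ALDOA, TPI1, GAPDH, PGK1, ENO1, LDHA, LDHB and TALDO1), beside 13.9% of all genes. Within control cells alone, ATRA and untreated arrays did not overlap for 4 higher and 13 lower members (25.2% and 23.4% of all genes), and within knockdown cells for 10 higher and 10 lower members (16.7% and 24.6%). Over all 12 arrays, the order of ATRA above untreated held for 4 members (SLC2A3, HK3, PGD and TIGAR), beside 6.48% of all genes. ALDOA, GAPDH, PGK1 and TALDO1, though lower on every ATRA array, had small differences and did not pass the model's test in control or in knockdown cells.

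**Figure D1:**
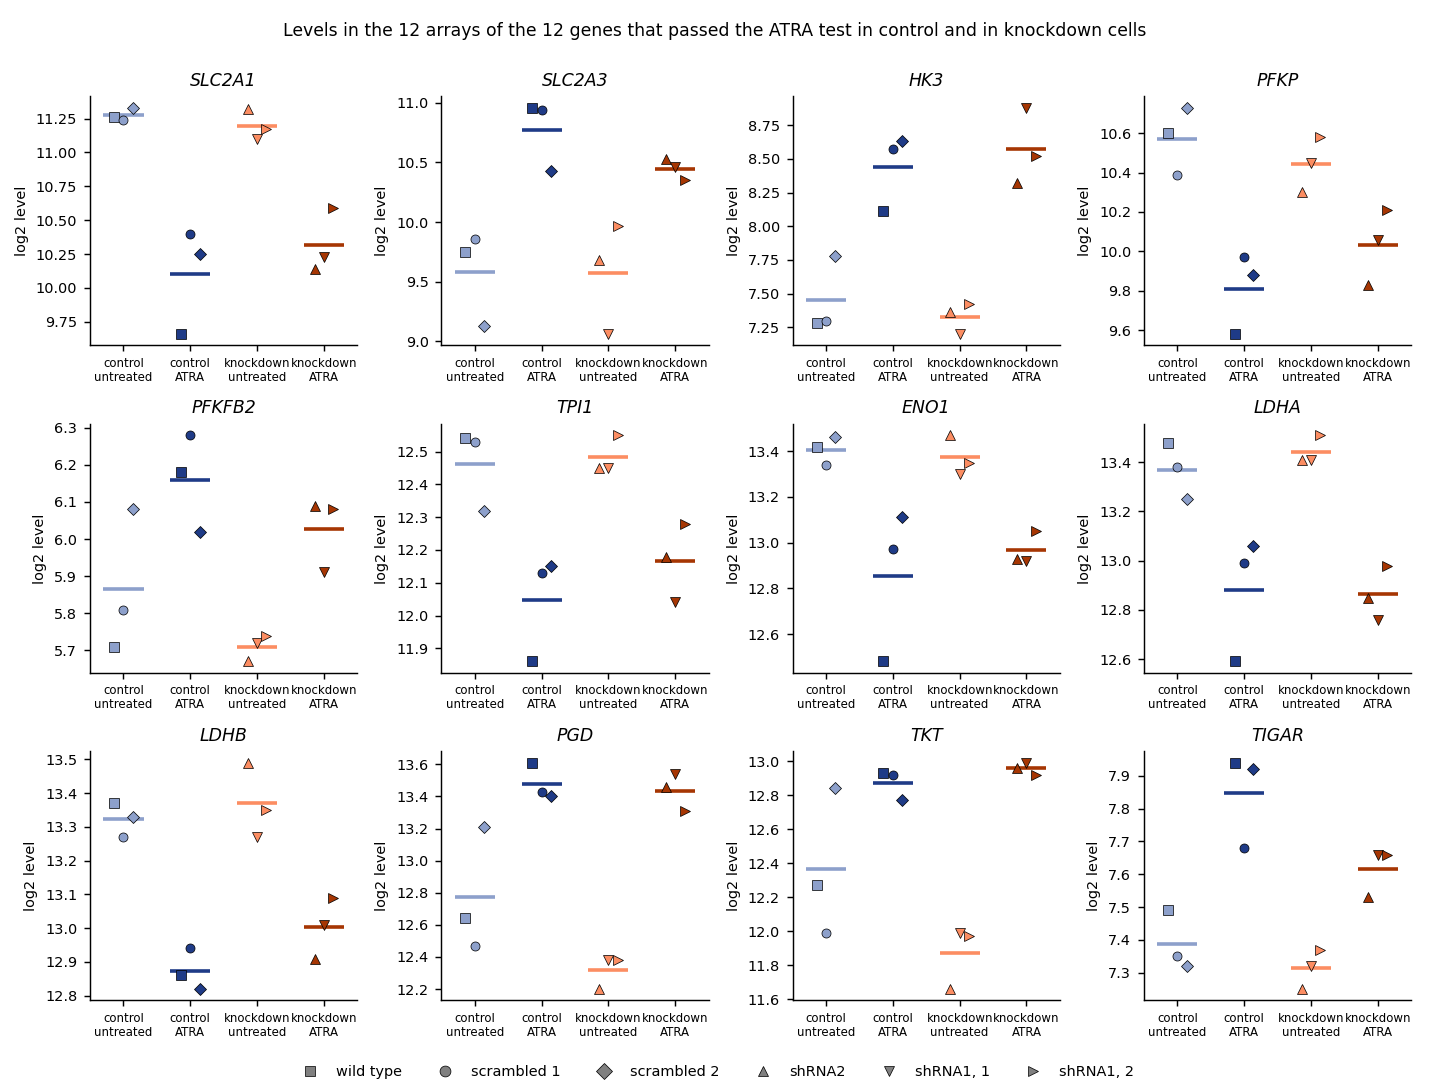
Log2 level on each of the 12 arrays of the 12 members that passed the ATRA test in both control and knockdown cells, by arm, each panel with its own axis that does not start at 0. Symbols are single arrays, named by line, and bars are arm means. For SLC2A1 the untreated arrays sit between 11.10 and 11.33 with every ATRA array at or below 10.59.

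Among the untreated arrays, scrambled replicate 2 was the highest or the lowest of the 6 untreated arrays for 18 of the 31 members (58.1%), and for 51.6% of all genes. It read 11.28 for FBP1, against 7.97 to 8.64 on the other untreated arrays, and 12.29 for SLC2A5, against 9.51 to 11.22. Its PGD level was 13.21, against 12.20 to 12.64, and its TKT level 12.84, against 11.66 to 12.27, so that both lay between the other untreated arrays and most or all of the ATRA arrays. The 7 measured markers of maturing granulocytes averaged 10.32 on that array, against 8.36 to 9.21 on the other untreated arrays and 10.92 to 11.41 after ATRA. The surface integrin ITGAM, one of these markers, read 10.16 there and 7.31 to 8.56 on the other untreated arrays. What part this has in the results below was not tested. The untreated shRNA2 array was an extreme for 17 of the 31 members (54.8%), against 41.7% of all genes, and was the lowest untreated array for 12 of them, among them SLC2A5, PGD and TKT. The ATRA-treated wild type array was an extreme of the 6 ATRA arrays for 18 members (58.1%), against 45.4% of all genes.

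**Figure D2:**
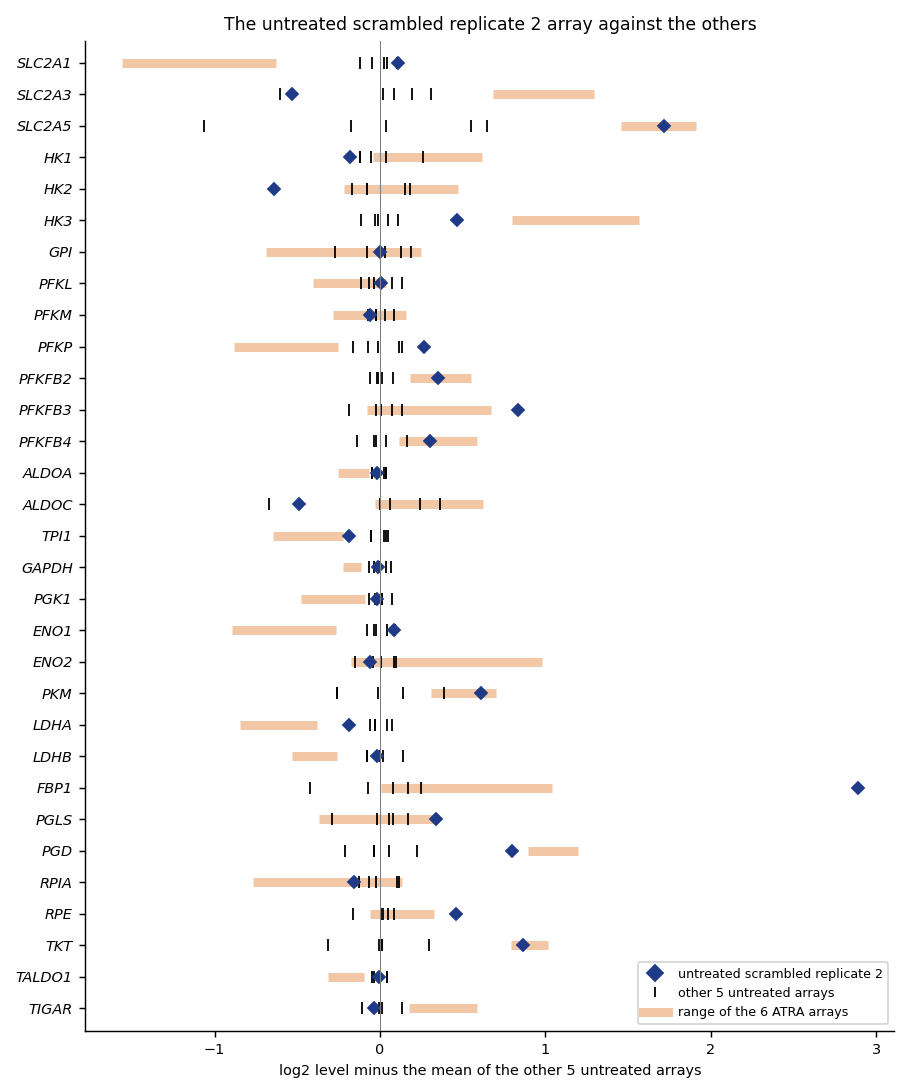
Log2 level of each member on the untreated scrambled replicate 2 array (diamonds) and on the other untreated arrays (ticks), minus the mean of those other untreated arrays, with the range of the 6 ATRA arrays as a band. FBP1, at 11.28 on that array, lies far to the right of the others, and SLC2A5 and TKT lie inside their ATRA bands.

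The promoters of 4 members that moved after ATRA are printed to show the sequence from which these transcripts start: LDHA and ENO1 fell, and PGD and HK3 rose, in both control and knockdown cells. The 250 bases before the annotated start are given 5′ to 3′ on the gene's strand, from RefSeq promoters on GRCh38.p14. They are chr11:18394313-18394562 (plus strand) for LDHA, chr1:8878687-8878936 (minus strand) for ENO1, chr1:10398814-10399063 (plus strand) for PGD and chr5:176899347-176899596 (minus strand) for HK3. Capitals mark matches, on either strand, to ACGTG or to GGAAGT, a core bound by ETS factors such as PU.1. ACGTG is a form of the core bound by hypoxia-inducible factors and lies inside CACGTG, the E-box bound by MYC. Other forms of these cores were not searched and are not marked.
LDHA: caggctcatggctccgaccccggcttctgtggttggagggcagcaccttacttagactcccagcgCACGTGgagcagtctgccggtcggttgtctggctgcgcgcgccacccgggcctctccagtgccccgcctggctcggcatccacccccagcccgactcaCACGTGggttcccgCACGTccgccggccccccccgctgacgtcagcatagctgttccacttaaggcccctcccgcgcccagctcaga
ENO1: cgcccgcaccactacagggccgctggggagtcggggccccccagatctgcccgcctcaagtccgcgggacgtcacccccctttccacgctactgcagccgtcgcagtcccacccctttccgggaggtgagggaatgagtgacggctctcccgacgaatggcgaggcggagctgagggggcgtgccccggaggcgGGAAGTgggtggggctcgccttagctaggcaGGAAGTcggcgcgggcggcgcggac
PGD: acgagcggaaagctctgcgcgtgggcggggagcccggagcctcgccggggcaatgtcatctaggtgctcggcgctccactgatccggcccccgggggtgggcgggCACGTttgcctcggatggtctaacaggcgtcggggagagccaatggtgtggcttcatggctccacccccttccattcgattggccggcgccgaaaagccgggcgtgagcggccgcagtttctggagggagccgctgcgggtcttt
HK3: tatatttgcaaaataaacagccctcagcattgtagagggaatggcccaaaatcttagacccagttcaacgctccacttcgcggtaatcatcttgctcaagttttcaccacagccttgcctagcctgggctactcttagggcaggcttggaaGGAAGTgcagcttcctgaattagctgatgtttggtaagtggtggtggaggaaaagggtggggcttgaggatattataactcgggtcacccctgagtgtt

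The LDHA stretch held 3 separate ACGTG stretches, of which 2 were full CACGTG, and no GGAAGT. ENO1 held 2 GGAAGT matches and no ACGTG, HK3 held 1 GGAAGT, and PGD held 1 ACGTG, on the reverse strand, where it is printed as CACGT. Promoters were matched for 29 of the 31 measured members, SLC2A3 and PFKFB2 being the others. In windows of 300 bases (250 before to 50 after the start), ACGTG on either strand lay in 10 of the 29 (34.5%), against 21.4% of all 35116 promoters. CACGTG lay in 3 (10.3%), against 7.3%, and GGAAGT in 5 (17.2%), against 22.8%. For each member only the first listed promoter was used. For some members, such as GAPDH and GPI, it was not at the outermost end of the gene. The 35116 promoters were not cut to 1 per gene, so the shares are not strictly alike. Among the 6 members that fell in both control and knockdown cells, only LDHA held ACGTG. Of the 4 matched members that rose in both, PGD and TIGAR held it. A match describes letters in the window and says nothing of binding.

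Of the 3 glucose transporters, SLC2A1 fell and SLC2A3 rose in both control and knockdown cells. SLC2A5 had positive differences in both, but was called only in knockdown cells. SLC2A1 (GLUT1), the broad basal glucose carrier, read 11.26 in wild type, 11.24 in scrambled 1 and 11.33 in scrambled 2 cells without treatment, and 9.66, 10.40 and 10.25 in the same lines after ATRA. The knockdown cells read 11.10, 11.17 and 11.32 untreated (shRNA1 replicates 1 and 2, then shRNA2) and 10.23, 10.59 and 10.14 after ATRA. Every ATRA array was below every untreated one. SLC2A1 fell by 1.17 ± 0.17 (SE, n = 3 and 3) on the log2 scale in control cells (limma adjusted p = 3.86e-04), where ATRA levels were 2.26-fold lower. It fell by 0.88 ± 0.17 in knockdown cells (limma adjusted p = 0.00312).

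SLC2A3 (GLUT3), a high-affinity glucose carrier of neutrophils and neurons, moved the other way. Its control levels were 9.75, 9.86 and 9.13 untreated (wild type, scrambled 1, scrambled 2) and 10.96, 10.94 and 10.43 after ATRA, and its knockdown levels 9.06, 9.97 and 9.68 untreated and 10.46, 10.35 and 10.53 after ATRA. No untreated array reached the lowest ATRA array. The rise was 1.19 ± 0.24 in control cells (limma adjusted p = 0.0027) and 0.88 ± 0.24 in knockdown cells (limma adjusted p = 0.019). The knockdown call was lost when any of 3 arrays was left out (untreated shRNA1 replicate 1, ATRA-treated shRNA1 replicate 1 or ATRA-treated shRNA2), with adjusted p from 0.0542 to 0.0715. SLC2A14, a close paralog of SLC2A3 with its own probe set, rose by 0.80 ± 0.13 and 0.58 ± 0.13 (limma adjusted p = 9.53e-04 and 0.00792). Sharing of signal between this pair was not tested, so the rise of either gene alone is uncertain.

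SLC2A5 (GLUT5), which carries fructose, had the widest spread among untreated arrays of the 3 carriers. Knockdown cells read 11.12, 10.61 and 9.51 untreated and 12.31, 12.48 and 12.32 after ATRA, without overlap, and SLC2A5 rose by 1.95 ± 0.43 (limma adjusted p = 0.00631). Control cells read 11.22, 10.40 and 12.29 untreated and 12.03, 12.19 and 12.04 after ATRA. The scrambled 2 array was the highest untreated one and lay above each of the control ATRA arrays. The control difference was 0.78 ± 0.43 (limma adjusted p = 0.172) with it, and 1.28 (adjusted p = 0.02) without it. The difference between the responses, 1.17 ± 0.61, had an interval from -0.16 to 2.50 and did not pass the test (limma adjusted p = 0.369). Without the untreated scrambled 2 array it was 0.67 ± 0.49 (limma adjusted p = 0.519).

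**Figure D3:**
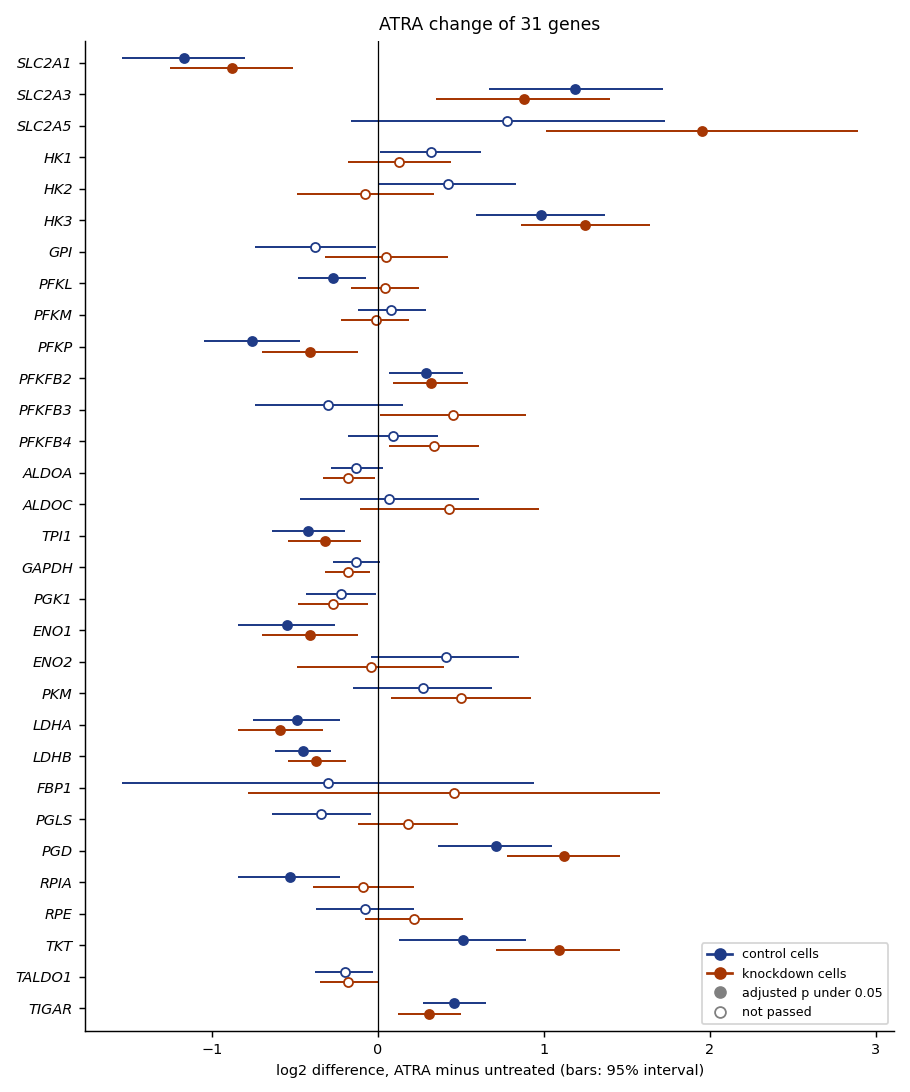
Log2 difference between ATRA and untreated cells for each member in control and knockdown cells, with 95% intervals from limma. Filled points have an adjusted p under 0.05, from SLC2A1 at -1.17 to SLC2A5 at 1.95.

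Of the 3 hexokinases, which trap glucose in the cell as glucose 6-phosphate, HK3 rose. HK3 is the hexokinase typical of myeloid cells. Its control levels were 7.28, 7.30 and 7.78 untreated (wild type, scrambled 1, scrambled 2) and 8.11, 8.57 and 8.63 after ATRA. Knockdown levels were 7.20, 7.42 and 7.36 untreated and 8.88, 8.52 and 8.32 after ATRA. All 6 ATRA arrays were above all 6 untreated arrays. The log2 rise was 0.98 ± 0.18 in control cells, a 1.97-fold rise, and 1.25 ± 0.18 in knockdown cells (limma adjusted p = 0.00154 and 6.99e-04).

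HK1, the housekeeping form, lay between 6.85 and 7.29 untreated and between 6.99 and 7.65 after ATRA. It differed by 0.32 in control and 0.13 in knockdown cells, and neither passed the test (limma adjusted p = 0.102 and 0.601). The control difference did pass with array weights (0.32, limma adjusted p = 0.0318) and without untreated scrambled 1 (0.45, limma adjusted p = 0.0277). HK2, the form that many tumours express strongly, lay between 9.31 and 10.13 untreated and between 9.73 and 10.42 after ATRA. It differed by 0.42 ± 0.19 in control cells (limma adjusted p = 0.103) and by -0.08 ± 0.19 in knockdown cells (limma adjusted p = 0.826). The control difference passed the test with the line as a block (0.42 ± 0.09, limma adjusted p = 0.0113) and with quantile normalization added (0.59, limma adjusted p = 0.0349). It also passed with array weights (0.45, limma adjusted p = 0.0225) and without untreated scrambled 1 (0.61, limma adjusted p = 0.0219). With arrays matched by replicate number, HK2 differed by 0.32, 0.29 and 0.64 in wild type, scrambled 1 and scrambled 2 cells. It differed by -0.15, -0.00 and -0.08 in shRNA1 replicates 1 and 2 and shRNA2. The difference between the responses was -0.49 ± 0.27, with an interval from -1.08 to 0.09 (limma adjusted p = 0.379).

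In upper glycolysis the platelet-type phosphofructokinase PFKP and triose phosphate isomerase TPI1 fell in both arms. Phosphofructokinase commits sugar to glycolysis. PFKP read 10.60, 10.39 and 10.73 in untreated control cells and 9.58, 9.97 and 9.88 after ATRA, and 10.45, 10.58 and 10.30 in untreated knockdown cells and 10.06, 10.21 and 9.83 after ATRA. Its lowest untreated array, shRNA2, was above its highest ATRA array. PFKP fell by 0.76 ± 0.13 in control cells (limma adjusted p = 0.00112) and by 0.41 in knockdown cells (limma adjusted p = 0.0427), and the knockdown call was lost without untreated wild type, ATRA-treated scrambled 2, either untreated shRNA1 array, ATRA-treated shRNA1 replicate 1 or ATRA-treated shRNA2 (adjusted p up to 0.166). PFKL, the liver-type subunit, read 9.90, 9.73 and 9.77 in untreated control cells and 9.51, 9.70 and 9.36 after ATRA, without overlap, and fell by 0.27 ± 0.09 in control cells (limma adjusted p = 0.0379), a call lost (adjusted p from 0.0504 to 0.14) without scrambled 2 or wild type in either state, untreated shRNA1 replicate 1 or ATRA-treated shRNA2. The PFKL fall shrank to a difference of -0.09 with quantile normalization added (limma adjusted p = 0.44). The call was also lost with the line as a block (limma adjusted p = 0.0686) and with a trend and robust prior (limma adjusted p = 0.0529). PFKL differed by 0.04 in knockdown cells. The muscle-type subunit PFKM, at 6.98 to 7.42 on all arrays, differed by 0.08 and -0.01.

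TPI1, which interconverts the triose phosphates, read 12.54, 12.53 and 12.32 in untreated control cells and 11.86, 12.13 and 12.15 after ATRA. Knockdown cells read 12.45, 12.55 and 12.45 untreated and 12.04, 12.28 and 12.18 after ATRA. It fell by 0.42 ± 0.10 in control and by 0.32 in knockdown cells (limma adjusted p = 0.00666 and 0.0338), and a further, dimmer TPI1 probe set differed by -0.47 and -0.20. The knockdown call was lost without any 1 of the untreated knockdown arrays, ATRA-treated shRNA1 replicate 1 or ATRA-treated shRNA2 (adjusted p from 0.0646 to 0.128). GPI (glucose 6-phosphate isomerase), at 11.93 to 12.39 untreated and 11.51 to 12.45 after ATRA, differed by -0.38 ± 0.17 and 0.05, with no call. Its control difference passed the test with array weights (-0.39, limma adjusted p = 0.0426) and without ATRA-treated scrambled 1 (-0.51, limma adjusted p = 0.0442). Of the aldolases, ALDOA read 10.50 to 10.58 untreated and 10.29 to 10.48 after ATRA, and differed by -0.13 and -0.18, with no call. ALDOC read 9.02 to 10.05 untreated and 9.66 to 10.31 after ATRA, and differed by 0.07 and 0.43, with no call. For ALDOA, ATRA and untreated arrays did not overlap in control or in knockdown cells, and its interval reached 0.03 in control cells.

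Fructose 2,6-bisphosphate, the strongest activator of phosphofructokinase, is made and removed by the PFKFB enzymes and removed by TIGAR, a phosphatase that steers glucose 6-phosphate toward the pentose phosphate pathway. TIGAR rose in both arms. It read 7.49, 7.35 and 7.32 in untreated control cells and 7.94, 7.68 and 7.92 after ATRA, and 7.32, 7.37 and 7.25 in untreated knockdown cells and 7.66, 7.66 and 7.53 after ATRA, with no overlap over the 12 arrays. The rise was 0.46 ± 0.09 in control cells (limma adjusted p = 0.00181) and 0.31 ± 0.09 in knockdown cells (limma adjusted p = 0.022), where the call was lost without untreated shRNA1 replicate 1, untreated shRNA2 or either ATRA-treated shRNA1 array (adjusted p from 0.0544 to 0.0776).

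PFKFB2 lay near the low end of the arrays, below 7.36, the level that parts the dimmest 33.3% of genes from the rest, as were 4 members in all. It read 5.71, 5.81 and 6.08 in untreated control cells and 6.18, 6.28 and 6.02 after ATRA, with overlap, and 5.72, 5.74 and 5.67 in untreated knockdown cells and 5.91, 6.08 and 6.09 after ATRA, without overlap. It rose by 0.29 in control cells and by 0.32 in knockdown cells (limma adjusted p = 0.0428 and 0.0404), and both calls were lost without some arrays. The control call was kept only without scrambled 2 in either state or ATRA-treated shRNA1 replicate 1 (adjusted p otherwise 0.0516 to 0.167), and the knockdown call was lost without any 1 of its own arrays but ATRA-treated shRNA1 replicate 1 (0.0765 to 0.123). Without the untreated scrambled 2 array, which was also its highest untreated array at 6.08, the control rise was 0.40 (limma adjusted p = 0.0072). PFKFB3, the inducible and strongly glycolytic isoform, differed by -0.30 in control cells and 0.45 in knockdown cells without a call. It read 10.09 on the scrambled 2 array and 9.07 to 9.39 on the other untreated arrays, and without that array its control difference was -0.03 and its knockdown difference, again 0.45, passed the test (limma adjusted p = 0.028). PFKFB4, at 7.58 to 8.02 untreated and 7.83 to 8.30 after ATRA, differed by 0.09 and 0.34, also without a call. Its knockdown difference had an adjusted p of 0.0683, and passed without untreated scrambled 2 (0.047), without untreated wild type (0.0399) and with array weights (0.0477).

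In lower glycolysis ENO1 (enolase) fell. ENO1 read 13.42, 13.34 and 13.46 in untreated control cells and 12.48, 12.97 and 13.11 after ATRA, and 13.30, 13.35 and 13.47 in untreated knockdown cells and 12.92, 13.05 and 12.93 after ATRA. The wild type ATRA array was the lowest by a wide margin. ENO1 fell by 0.55 ± 0.13 in control cells (limma adjusted p = 0.00747), by 0.36 without that array, and by 0.41 in knockdown cells (limma adjusted p = 0.0417), a call kept only when untreated scrambled 2 or any 1 control ATRA array was the array left out.

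GAPDH, often used as a reference transcript, lay at 13.76 to 13.89 on untreated arrays and 13.60 to 13.71 after ATRA. The gap was steady but small, at -0.13 in control cells (limma adjusted p = 0.134) and -0.18 in knockdown cells (adjusted p = 0.0548). The latter passed with the dimmest genes removed (0.0447), with arrays centred on their median (0.0468) and with array weights (0.037). PGK1, the first ATP-making step, differed by -0.22 and -0.27 (limma adjusted p = 0.0874 and 0.0639), at 12.66 to 12.80 untreated and 12.25 to 12.64 after ATRA, without overlap. The control difference passed without ATRA-treated scrambled 2 (0.0443). The knockdown difference passed without ATRA-treated wild type (0.014), with quantile normalization added (0.0395) and with array weights (0.0231).

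PKM (pyruvate kinase) read 11.78 to 12.65 untreated and 12.35 to 12.74 after ATRA. It differed by 0.27 in control cells, or 0.45 without untreated scrambled 2 (limma adjusted p = 0.0827), and by 0.50 in knockdown cells (adjusted p = 0.085). The knockdown difference passed the test when untreated scrambled 1 (0.0162) or untreated scrambled 2 (0.0456) was left out. ENO2, the neuronal enolase, read 6.95 to 7.20 untreated. After ATRA it read 8.08 in wild type, 7.27 in scrambled 1 and 7.05 in scrambled 2 cells, and 6.93 to 7.18 in knockdown cells. It differed by 0.41 in control and -0.04 in knockdown cells, with no call. The control difference was 0.10 without ATRA-treated wild type, and 0.62 without ATRA-treated scrambled 2, where it passed (limma adjusted p = 0.0316). The 4 probe sets that PGAM1 shares with PGAM4 differed by -0.54 to 0.03 in control cells and by -0.21 to 0.08 in knockdown cells.

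Both lactate dehydrogenase subunits, which interconvert pyruvate and lactate, fell in both arms. LDHA read 13.48, 13.38 and 13.25 in untreated control cells and 12.59, 12.99 and 13.06 after ATRA, and 13.41, 13.51 and 13.41 in untreated knockdown cells and 12.76, 12.98 and 12.85 after ATRA. LDHB read 13.37, 13.27 and 13.33 in untreated control cells and 12.86, 12.94 and 12.82 after ATRA, and 13.27, 13.35 and 13.49 in untreated knockdown cells and 13.01, 13.09 and 12.91 after ATRA. For each of them, ATRA and untreated arrays did not overlap. LDHA fell by 0.49 ± 0.12 in control cells and by 0.59 ± 0.12 in knockdown cells (limma adjusted p = 0.0074 and 0.00384). With scrambled and shRNA1 arrays alone the control difference of LDHA was -0.29 (limma adjusted p = 0.119). LDHB fell by 0.45 ± 0.08 and by 0.37 ± 0.08 (limma adjusted p = 0.00122 and 0.00559). FBP1, which runs the fructose bisphosphate step backwards in gluconeogenesis, differed by -0.30 ± 0.57 in control and 0.46 ± 0.57 in knockdown cells. Its control difference was 0.61 ± 0.23 (limma adjusted p = 0.0591) without the scrambled 2 array described above.

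Of the 6 pentose phosphate enzymes, PGD and TKT rose in both control and knockdown cells. PGD, the NADPH-making 6-phosphogluconate dehydrogenase, read 12.64, 12.47 and 13.21 in untreated control cells and 13.61, 13.43 and 13.40 after ATRA, and 12.38, 12.38 and 12.20 in untreated knockdown cells and 13.54, 13.31 and 13.46 after ATRA. All ATRA arrays were above all untreated ones, though the untreated scrambled 2 array came close. PGD rose by 0.71 ± 0.16 in control cells (limma adjusted p = 0.00485) and by 1.12 ± 0.16 in knockdown cells, a 2.17-fold rise (adjusted p = 6.32e-04). Without the scrambled 2 untreated array the control rise was 0.92.

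TKT (transketolase), of the non-oxidative branch, read 12.27, 11.99 and 12.84 in untreated control cells and 12.93, 12.92 and 12.77 after ATRA, and 11.99, 11.97 and 11.66 in untreated knockdown cells and 12.99, 12.92 and 12.96 after ATRA. In control cells the arms overlapped, since the untreated scrambled 2 array exceeded the ATRA-treated scrambled 2 array. The rise was 1.09 ± 0.17 in knockdown cells (limma adjusted p = 0.00113). In control cells it was 0.51 ± 0.17 (limma adjusted p = 0.0382), and the call was kept only when the array left out was untreated scrambled 2 or one of the untreated knockdown arrays. The rise was 0.32 without untreated scrambled 1 and 0.75 without untreated scrambled 2 (limma adjusted p = 6.31e-04).

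RPIA (ribose 5-phosphate isomerase) fell in control cells, from 9.53, 9.52 and 9.26 to 8.65, 9.08 and 8.97, a fall of 0.53 ± 0.14 (limma adjusted p = 0.0112) with no overlap. In knockdown cells it read 9.39, 9.29 and 9.35 untreated and 9.08, 9.55 and 9.13 after ATRA, a difference of -0.09 (limma adjusted p = 0.727). PGLS (6-phosphogluconolactonase), at 8.57 to 9.20 untreated and 8.49 to 9.19 after ATRA, differed by -0.34 and 0.18 without a call, and its control difference passed without untreated shRNA2 (limma adjusted p = 0.0453). RPE (ribulose phosphate epimerase), at 9.64 to 10.26 untreated and 9.74 to 10.13 after ATRA, differed by -0.08 and 0.22 without a call. TALDO1 (transaldolase), at 11.68 to 11.77 untreated and 11.41 to 11.63 after ATRA, differed by -0.20 and -0.18 without a call. Its control difference passed without ATRA-treated scrambled 1 (0.0446), with arrays centred on their median (0.0429) and with array weights (0.0392).

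Knockdown and control cells were then compared within each state, to ask whether these genes differed with HOTAIRM1 knockdown. In untreated cells limma called none of the 31 members and 0 of the 18404 genes (0%) at an adjusted p under 0.05. At an unadjusted p under 0.05 it returned 727 genes, 3.95% of all, and 2 members. These were PGD, at -0.45 with an interval from -0.80 to -0.11, and TKT, at -0.49 with an interval from -0.87 to -0.12, both with adjusted p = 0.999. The same 2 differences were -0.24 and -0.26 once the untreated scrambled 2 array was left out. FBP1 and SLC2A5 differed by -1.18 and -0.89, and by -0.27 and -0.39 without that array.

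After ATRA no member was called, beside 11 of all genes (0.0598%), 10 of them higher and 1 lower. With quantile normalization added, 138 genes were higher and 142 lower, and with arrays centred on their median 249 and 108. At an unadjusted p under 0.05, 4 members differed, PFKL by 0.25, PGLS by 0.36, RPIA by 0.35 and TIGAR by -0.23, beside 28.1% of all genes. Over all settings, the smallest adjusted p for any member in these 2 comparisons or in the difference between responses was 0.0689 (TIGAR after ATRA, without the ATRA-treated scrambled 1 array). The intervals were narrow for some members: for GAPDH after ATRA the difference lay between -0.15 and 0.13, and for ALDOA between -0.19 and 0.12.

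The difference between the ATRA responses was not called for any gene (limma, 0 of 18404, 0%), with 2815 genes (15.3%) and 5 members at an unadjusted p under 0.05. All 5 members had the larger value in knockdown cells: PFKFB3 by 0.75, TKT by 0.58, PGLS by 0.52, RPIA by 0.45 and PFKL by 0.32. For PFKFB3, TKT and PGLS the values without the untreated scrambled 2 array were 0.48, 0.34 and 0.42. Without both scrambled 2 arrays PFKFB3 differed by 0.43, TKT by 0.29, PGLS by 0.33 and PFKL by 0.25, while RPIA was larger, at 0.57. The median member differed by 0.23, against -0.01 for all genes, and by 0.11 without both scrambled 2 arrays. The calls of RPIA and PFKL in control cells and their lack in knockdown cells are therefore not shown to differ.

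**Figure D4:**
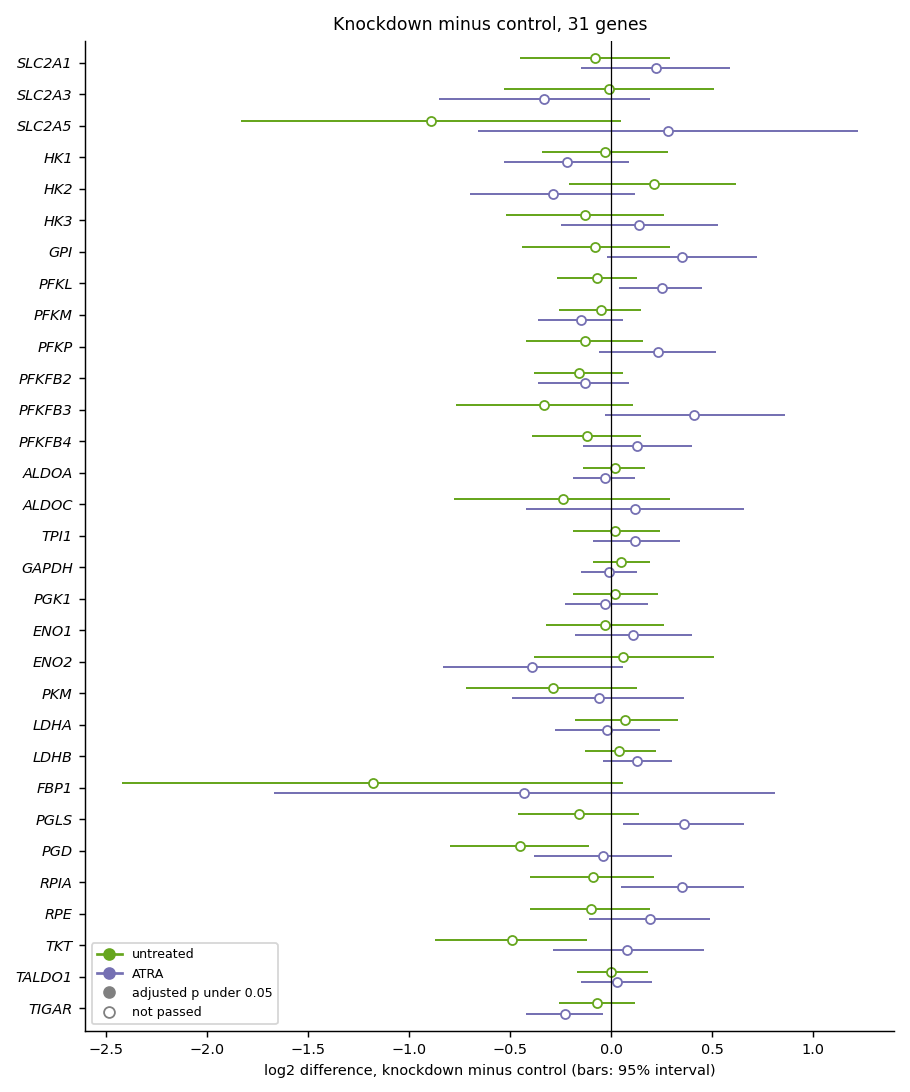
Log2 difference between knockdown and control cells for each member, untreated and after ATRA, with 95% intervals from limma. No member had an adjusted p under 0.05, and the widest intervals belong to FBP1, from -2.42 to 0.06 without treatment.

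Lists of related genes were read in the same fits, beside all genes: 15.2% higher and 20.9% lower with ATRA in control cells, 10.1% and 14.7% in knockdown cells. Of 28 measured other genes of glucose metabolism (32 listed), 3 rose (10.7%) and 7 fell (25%) in control cells. In knockdown cells 2 rose (7.14%) and 4 fell (14.3%), so that these shares lay near those of all genes. PRPS2 and PRPS1, which turn ribose 5-phosphate into the nucleotide precursor PRPP, fell by 1.50 ± 0.16 and by 1.08 ± 0.16 in control cells (limma adjusted p = 9.76e-05 and 4.08e-04). They fell by 1.21 and by 0.86 in knockdown cells. SLC37A4, the glucose 6-phosphate carrier of the endoplasmic reticulum, fell by 50.02% of its signal in control cells and fell by 0.59 on the log2 scale in knockdown cells (limma adjusted p = 5.89e-04 and 0.0158).

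The next list held genes that carry pyruvate into mitochondria and on to acetyl-CoA and citrate, together with genes that act otherwise on pyruvate. The latter were PDK1, PDK2, PDK3 and PDK4, which inhibit pyruvate dehydrogenase, and PC, ME1 and ME2. The counts are therefore not those of the entry route alone. Of 16 measured (17 listed), 0 rose and 9 fell in control cells, and 1 rose and 8 fell in knockdown cells, beside 20.9% and 14.7% of all genes falling. DLAT, a core subunit of pyruvate dehydrogenase, fell by 1.14 ± 0.14 and by 0.80 ± 0.14 (limma adjusted p = 1.49e-04 and 0.0015). MPC1, a subunit of the mitochondrial pyruvate carrier, fell by 0.80 and by 0.70, and PDP1, the phosphatase that activates pyruvate dehydrogenase, by 0.43 and by 0.91. CS (citrate synthase) fell by 0.46 and by 0.20. Of 14 measured glycogen genes (16 listed), 2 rose (14.3%) and 4 fell (28.6%) in control cells and 2 rose (14.3%) and 3 fell (21.4%) in knockdown cells, again near the shares of all genes. The branching enzyme GBE1 fell by 1.95 and by 1.47, phosphoglucomutase PGM1 fell by 1.11 and by 0.63, and the lysosomal glucosidase GAA rose by 0.72 and 0.58.

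Of 18 measured regulators of glucose use (20 listed), 5 rose (27.8%) and 4 fell (22.2%) in control cells and 3 rose (16.7%) and 1 fell (5.56%) in knockdown cells. These shares rest on few genes and were not tested against those of all genes. MYC, which activates many glycolytic genes, fell by 1.29 ± 0.23 and by 1.25 ± 0.23 (limma adjusted p = 0.00122 and 0.00215). TXNIP, which limits glucose uptake, rose by 1.30 and 1.40, and the hypoxia factor HIF1A by 0.56 and 0.63. NFE2L2, an inducer of NADPH-making enzymes, rose by 0.62 in control cells and differed by 0.19 in knockdown cells. Among 16 measured hypoxia genes outside glycolysis (17 listed), 4 rose (25%) and 2 fell (12.5%) in control cells and 2 rose (12.5%) and 1 fell (6.25%) in knockdown cells, likewise untested. The lipase inhibitor ANGPTL4 rose by 2.10 and 2.25, the collagen hydroxylase P4HA1 rose by 0.58 and 0.71, and the mitophagy receptor BNIP3 fell by 0.62 and by 0.69.

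Markers of cell types were read on the same arrays. Markers of maturing granulocytes rose in 6 of 7 measured genes in control and 7 of 7 in knockdown cells, with a median of 1.73 and 1.79. Promyelocyte markers, 6 measured, averaged 10.41 to 11.09 untreated and 10.01 to 10.89 after ATRA. They gave 0 calls in control cells and 1 higher and 1 lower in knockdown cells. Single promyelocyte markers moved opposite ways, from -1.08 to 0.83 in control cells and from -2.45 to 1.42 in knockdown cells. MPO (myeloperoxidase) read 13.51 to 13.81 untreated and 12.67 to 13.75 after ATRA. Monocyte markers rose in 4 of 6 and 3 of 6 genes, their mean moving from 6.90 to 7.06 untreated to 7.24 to 8.14 after ATRA. Lymphoid markers rose in 2 of 6 and 1 of 6, and erythroid and megakaryocyte markers in 1 of 5 and 0 of 5. Such marker counts rest on few genes and were not tested against the shares of all genes. The lymphoid mean was 7.49 to 8.12 untreated and 7.82 to 8.03 after ATRA, and the erythroid and megakaryocyte mean 7.22 to 7.42 and 7.22 to 7.43. Their part in the changes of the pathway genes was not tested.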

How the data were processed

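Total RNA of NB4 cells was measured on 12 Affymetrix arrays. The authors deposited log2 signal. The submitters' processing notes name RMA and limma, with no version. The lowest value was 2.67 and the highest 14.63, medians of single arrays lay between 7.73 and 7.81, and nothing was rescaled. Probe sets annotated to 1 gene were kept (19158 of 32321), the highest by mean over the 12 arrays where a gene had several, giving 18404 genes with no filter on low values. Differences were fitted with limma 3.58.1 in R 4.3.3 on 4 arm means (lmFit, eBayes, 8 residual degrees of freedom), with two-sided p-values adjusted by Benjamini-Hochberg over all genes within each contrast at a threshold of 0.05. With 3 arrays against 3, exact permutation gives no p under 0.1. The number of arrays limits the precision. The script was tested on simulated data. Every measured member is given, in full where called and mostly by range otherwise, and for other lists counts and up to 3 genes of smallest p in each ATRA comparison. The members and lists were chosen with earlier results of these data known. Alternatives were single arrays left out, a line block, quantile or median scaling, a filter on low genes, probe set means, array weights and other priors.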

Additional observations from a re-analysis of the deposited data

Results flagged for a closer look

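With arrays matched by replicate number, HK2 was up with ATRA in wild type, scrambled 1 and scrambled 2 cells (0.32, 0.29 and 0.64). It was down or level in shRNA1 replicates 1 and 2 and shRNA2 (-0.15, -0.00 and -0.08). The replicate numbers were not shown to pair the arrays. The difference between the responses was -0.49 ± 0.27 and did not pass limma's test (adjusted p = 0.379). The control difference, 0.42, passed with the line as a block and in 3 other settings given above. HK2 was the 1 member of 31 (3.23%) with opposite directions in all matched control and knockdown pairs, beside 4.97% of all genes. The member share was thus not above that of all genes, and shRNA1 replicate 2 lay at -0.00.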

How the results depend on the processing

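Over 21 other settings, 0 of 27 calls of single members turned direction, and 10 were kept under each setting. Members with no call could change sign in control cells: FBP1 was at 0.61 without untreated scrambled 2, PFKFB3 at 0.02 and ALDOC at -0.22 without both scrambled 2 arrays, and ALDOA at 0.06 and RPE at 0.10 with quantile normalization. With scrambled and shRNA1 arrays alone, 2 members were higher and 3 lower in control cells and 3 higher and 2 lower in knockdown cells, and the knockdown minus control median was -0.05 untreated and 0.02 after ATRA (0.02 also with quantile normalization). The median difference between responses was 0.11 with array weights and 0.11 without both scrambled 2 arrays, a setting chosen after seeing the data that put the control median at -0.00. Leaving out 1 array at a time gave 4 to 7 higher, 7 to 10 lower and a median of -0.15 to -0.03 in control cells. Knockdown cells gave 4 to 10 higher, 3 to 7 lower and a median of 0.00 to 0.10. Over all 18404 genes these fits gave 1549 to 2762 higher and 2977 to 3884 lower in control cells. In knockdown cells they gave 1402 to 2040 higher and 2012 to 2878 lower. The member count in knockdown cells fell to 4 higher without untreated shRNA1 replicate 1. It fell to 3 lower without either untreated shRNA1 array, ATRA-treated shRNA1 replicate 1 or ATRA-treated shRNA2. The knockdown minus control median ran from -0.10 to -0.05 untreated and from -0.02 to 0.10 after ATRA, and the difference between responses from 0.08 to 0.28. Over all genes, calls in control cells were 2800 higher, 1549 without untreated wild type, 1783 without ATRA-treated wild type, 4450 with array weights and 763 with scrambled and shRNA1 alone (2218 lower, against 3844); in knockdown cells the last setting gave 946 and 1415, against 1854 and 2714. After ATRA, knockdown minus control gave 11 genes, 0 without untreated wild type, and 420 higher and 281 lower without untreated scrambled 2. Replicate numbers were not shown to pair the arrays (correlations of deviations -0.173 to 0.226, with 4 of 6 arrays closest to their own number). With the replicate block, 5 of 31 members were higher and 7 lower in control cells, beside 2300 and 3761 of 18404 genes. In knockdown cells 6 and 5 members were called, beside 1820 and 2578 genes. With 3 arrays an arm, small changes of single members are not resolved.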
